A study of Oryza sativa Japonica Group with 12 samples.

Results

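The comparison described here sets rice plants homozygous for a mutation in cytosolic glutamine synthetase 1;2 (gs1;2) against wild-type plants, both 7 d old, across all genes of the array. It uses 6 of the 12 arrays of the study, 3 per genotype, chosen by their labelled genotype and age, and the other 6 hold the same genotypes at 11 d. All plants were of the japonica cultivar Nipponbare and stood in hydroponic solution that supplied nitrogen as 1 mM ammonium. The greenhouse gave 13 h of light at 26 °C and 11 h of darkness at 23 °C. For a range of sample numbers outside the 7 d titles the growth text gives another condition, described with the 11 d arrays below. The tissue was the basal 5 mm of the shoot, from which total RNA was taken. The wild-type group at 7 d and the mutant group at 7 d therefore differ, by their labels, in the gs1;2 genotype alone. The labels do not say how the mutant allele was made, whether more than 1 mutant line was used or how many plants went into an array. The submitters call the 3 arrays of a group biological replicates.

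Glutamine synthetase joins ammonium to glutamate and so makes glutamine, the first organic product of ammonium assimilation. Glutamate synthase then passes the amide nitrogen of glutamine on to make glutamate. Rice has several cytosolic forms of glutamine synthetase (GS1) and a plastidic form (GS2), and GS1;2 is known as the form that assimilates ammonium in roots and in the shoot base. The basal segment of a young shoot holds the shoot apical meristem, the axillary buds that become tillers, and the bases of the leaves.

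A probe set is a group of short probes that together measure a transcript, and its value is a log2 signal, so a difference of 1 is a change of 2-fold. Across 57194 probe sets, 556 passed at an adjusted p under 0.05 in limma, or 0.972%. Of these, 319 were higher in the mutant (0.558% of all) and 237 were lower (0.414%). A difference of at least 1 was reached by 84 of the higher and 43 of the lower probe sets, and one of at least 2 by 20 and 7. Without regard to any test, all 3 mutant arrays lay above all 3 wild-type arrays in 4820 probe sets (8.43%) and below them in 6044 (10.6%), and all 556 that passed were among these. A single gene was listed for 281 of the 556, and 275 had none listed.

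**Figure D1:**
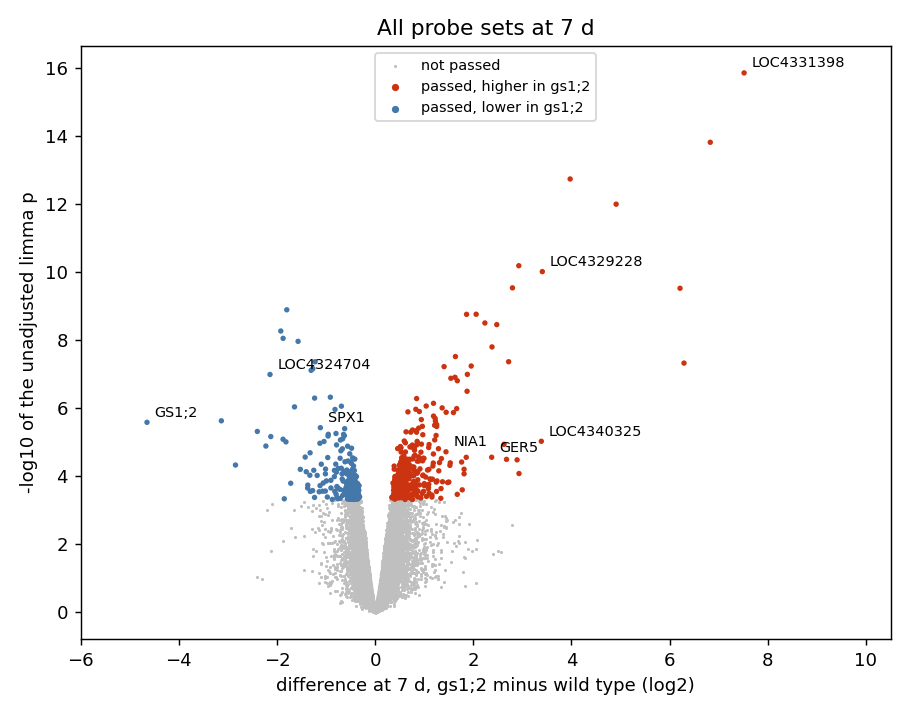
Each point is a probe set, with the difference between the mutant and wild type at 7 d (log2) against the unadjusted limma p on a −log10 scale. The 319 probe sets that passed and were higher in the mutant are red and the 237 lower are blue; LOC4331398 and GS1;2 lie at the ends of the 2 directions.

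At 7 d the arrays of a genotype correlated with each other at 0.994 to 0.997 and with the other genotype at 0.992 to 0.995. The first principal component of these 6 arrays held 40.2% of the variance and set the genotypes apart, with wild type between -33.1 and -21.6 and the mutant between 10.7 and 39.3. Mutant replicate 1, at 10.7, lay nearest to wild type. The 25 green leaf genes had a mean log2 signal between 8.86 and 9.26 in wild type and between 9.09 and 9.25 in the mutant, and the 4 KNOX genes listed as meristem markers 8.51 to 8.77 and 8.58 to 8.78. OSH1, the KNOX gene that marks undifferentiated meristem cells, stood at 11.5 in both genotypes. The ranges also overlapped for the 8 phloem genes (8.02 to 8.16 and 8.11 to 8.22) and the 11 seed storage genes (4.53 to 4.62 and 4.47 to 4.53). The 8 root genes ran from 5.26 to 5.41 in wild type and from 5.41 to 5.59 in the mutant, just without overlap, and no single root gene passed. Of all these marker genes GLK2 alone passed, and their part in the results below was not tested. A log2 RMA signal has no zero and no detection calls were used here, so no marker can be called absent. In a segment that holds several tissues, fewer cells of a type and less RNA per cell cannot be told apart.

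The targeted gene, listed as GLN1-2, gave 12.38, 12.31 and 12.46 in the 3 wild-type arrays and 7.76, 7.65 and 7.80 in the 3 mutant arrays. The groups were far apart and each was tight, with an SD of 0.08 in both (n = 3). GS1;2 was 25.1-fold lower in the mutant (log2 difference -4.65, SE 0.57, adjusted p = 0.00289, limma). The SE is large beside the spread at 7 d because the fit shares its estimate of the spread with the 11 d arrays, where the array labelled mutant 11 d replicate 3 gave 11.44 against 8.37 and 8.65. In this gene that array goes against its label. Without it the difference at 7 d was again -4.65, with an SE of 0.09 (adjusted p = 1.98e-10). The positions of the probes in the gene were not used here, so the remaining signal in the mutant is not shown to be intact transcript. None of the 8 nearest measured genes on either side of GS1;2 in the gene table passed. The largest among them were 0.31 for LOC4332107 and -0.29 for LOC4332110.

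Beside GS1;2 itself, few genes of nitrogen assimilation passed at 7 d. Of 18 measured members of that list, 1 rose and 1 fell, and 16 did not pass. Over all 17905 genes, taken by the probe set with the highest mean, 0.787% rose and 0.464% fell. The list's median difference was 0.21, beside 0.01 for all genes. The gene that rose was NIA1, which encodes a nitrate reductase, the enzyme that turns nitrate into nitrite. Its signal was 5.48, 5.53 and 5.34 in wild type and 7.06, 7.04 and 6.58 in the mutant. The groups lay more than 1 apart, and NIA1 was 2.72-fold higher in the mutant (1.44, SE 0.21, adjusted p = 0.0104). Its other probe set was low in all 6 arrays, between 4.28 and 4.65, and did not differ (-0.02, adjusted p = 0.969).

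Among the other glutamine synthetases, the cytosolic GLN1-1 gave 11.74, 11.80 and 11.75 in wild type and 11.53, 11.49 and 11.59 in the mutant. These groups did not overlap, yet the difference of -0.23 did not pass (SE 0.08, adjusted p = 0.191). The cytosolic GLN1-3 was near the middle of all signals, at 4.93 on average in wild type and 4.63 in the mutant (-0.30, adjusted p = 0.344). The plastidic GLN2 differed by 0.24 (adjusted p = 0.164), and its second probe set by 0.31. Fd-GOGAT, the glutamate synthase that uses ferredoxin, differed by 0.25 on its brightest probe set (adjusted p = 0.137) and by 0.18 and -0.06 on the others. Without mutant replicate 1 the brightest set passed (0.32, adjusted p = 0.0411). The NADH-dependent glutamate synthase gene GLT2 gave 4.05, 4.18 and 3.75 in wild type and 4.59, 4.85 and 4.68 in the mutant. It came nearest to the threshold of the members that did not pass (0.71, SE 0.18, adjusted p = 0.0931). Without wild-type 11 d replicate 2 it passed (adjusted p = 0.0270).

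The glutamate dehydrogenase genes differed by -0.25 (GDH1), 0.19 (GDH2) and -0.02 (GDH3), with further GDH2 probe sets at 0.03 and 0.47. The lowest adjusted p among them was 0.109, for GDH1. The ammonium transporter genes also stayed short of the threshold. AMT1 differed by 0.54, AMT2-1 by 0.54, AMT3-3 by 0.32, AMT2-3 by 0.23, AMT3-1 by 0.23, AMT1-2 by 0.12, AMT3-2 by 0.07 and AMT2-2 by -0.04, with adjusted p between 0.220 and 0.962. Second probe sets of AMT1 and AMT3-1 differed by -0.07 and 0.12. In AMT1, mutant replicate 2 stood at 7.05, against 6.12 and 6.20 in the other mutant arrays. Of 7 genes of nitrate transport and signalling none passed, and their median difference was 0.18.

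The largest increases were in genes without an informative name, and most of these went from a low signal in wild type to a clear one in the mutant. LOC4331398 gave 2.86, 3.19 and 2.93 in wild type and 10.52, 10.60 and 10.43 in the mutant, a difference of 7.52 (SE 0.12, adjusted p = 8.15e-12). Its second probe set rose by 6.83 (SE 0.16, adjusted p = 4.45e-10). Both probe sets show the same pattern in every array, and the groups are separated by more than 6 log2 units.

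LOC4340325 stood between 3.71 and 4.22 in wild type and at 7.65, 8.48 and 5.92 in the mutant (3.39, SE 0.47, adjusted p = 0.00679). Mutant replicate 3 is the low one, and still above all of wild type. The other probe set listed for LOC4340325 did not differ (0.05, adjusted p = 0.847). LOC4350282 was between 2.55 and 2.85 in wild type and at 5.88, 5.27 and 5.63 in the mutant (2.93, SE 0.14, adjusted p = 7.54e-07). LOC4328903 was between 3.44 and 3.74 in wild type and at 6.36, 6.54 and 6.34 in the mutant (2.80, SE 0.15, adjusted p = 2.16e-06). These genes, LOC4331398 included, share a wild-type signal under 4.97, the median of all values. Whether such a signal is above background is not known, so no fold is given for them. LOC4348633 rose from 5.20, 5.75 and 5.24 to 8.01, 8.60 and 8.37 (2.93, SE 0.51, adjusted p = 0.0220). Its call was lost without any 1 of 5 arrays at 7 d, the wild-type arrays and mutant replicates 2 and 3, with adjusted p up to 0.0834.

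The probe sets of LOC4329228 disagreed. One stood at 3.09 on average in wild type (SD 0.02) and at 6.37, 6.43 and 6.69 in the mutant (3.41, SE 0.17, adjusted p = 9.35e-07). Another 2, with a wild-type signal near 9.55, fell by 0.48 and by 0.38 (adjusted p = 0.0253 and 0.0310), and the last differed by 0.21 without passing. The 2 falling sets passed in 8 and in 5 of the 12 fits that left out an array, with adjusted p up to 0.114, and the rising one in all 12. A direction for this gene as a whole is therefore not given. It is the 1 gene with passing probe sets in both directions.

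Among probe sets with no gene listed, Os.46431.1.S1_at gave 5.26, 4.81 and 4.82 in wild type and 11.69, 11.21 and 10.87 in the mutant (6.29, SE 0.53). OsAffx.22999.1.S1_at gave 6.47, 6.70 and 6.61 against 12.80, 12.85 and 12.76 (6.21, SE 0.34). In the opposite direction, Os.51759.1.S1_at gave 6.51, 6.47 and 6.79 in wild type and 3.47, 3.37 and 3.53 in the mutant (-3.13, SE 0.38). OsAffx.19820.1.S1_at fell by 2.84 (SE 0.46). In all, 12 probe sets had a wild-type mean under the median of all values and a mutant mean at least 2 higher. All 12 mutant means were above that median, 6 of the 12 had a gene listed, and all 12 also passed in the same direction at 11 d.

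Among genes listed for a probe set, the largest decreases after GS1;2 were in genes without an informative name. LOC4324704 gave 8.16, 9.15 and 8.51 in wild type and 6.64, 6.28 and 6.47 in the mutant (-2.14, SE 0.19, adjusted p = 0.000219). LOC4335658 gave 7.22, 6.91 and 6.31 against 4.98, 5.23 and 4.60 (-1.88, SE 0.26, adjusted p = 0.00629). In both genes the lowest wild-type array was more than 1 above the highest mutant array. LOC4331734 fell by 1.52 (SE 0.26), and LOC4344047 fell by 1.42 (SE 0.22). LOC4343816 fell by 1.85 (SE 0.39). Wild type and mutant came close to each other in LOC4343816, with the lowest wild-type array at 7.73 and the highest mutant array at 7.54, and its adjusted p was 0.0491. LOC4343816 passed in 2 of the 12 fits that left out an array, those without wild-type replicate 1 or mutant replicate 2. LOC4331734 and LOC4344047 lost their call without wild-type replicate 2 (adjusted p = 0.0899 and 0.0707) or replicate 3, and LOC4331734 also without mutant replicate 2 or 3.

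**Figure D2:**
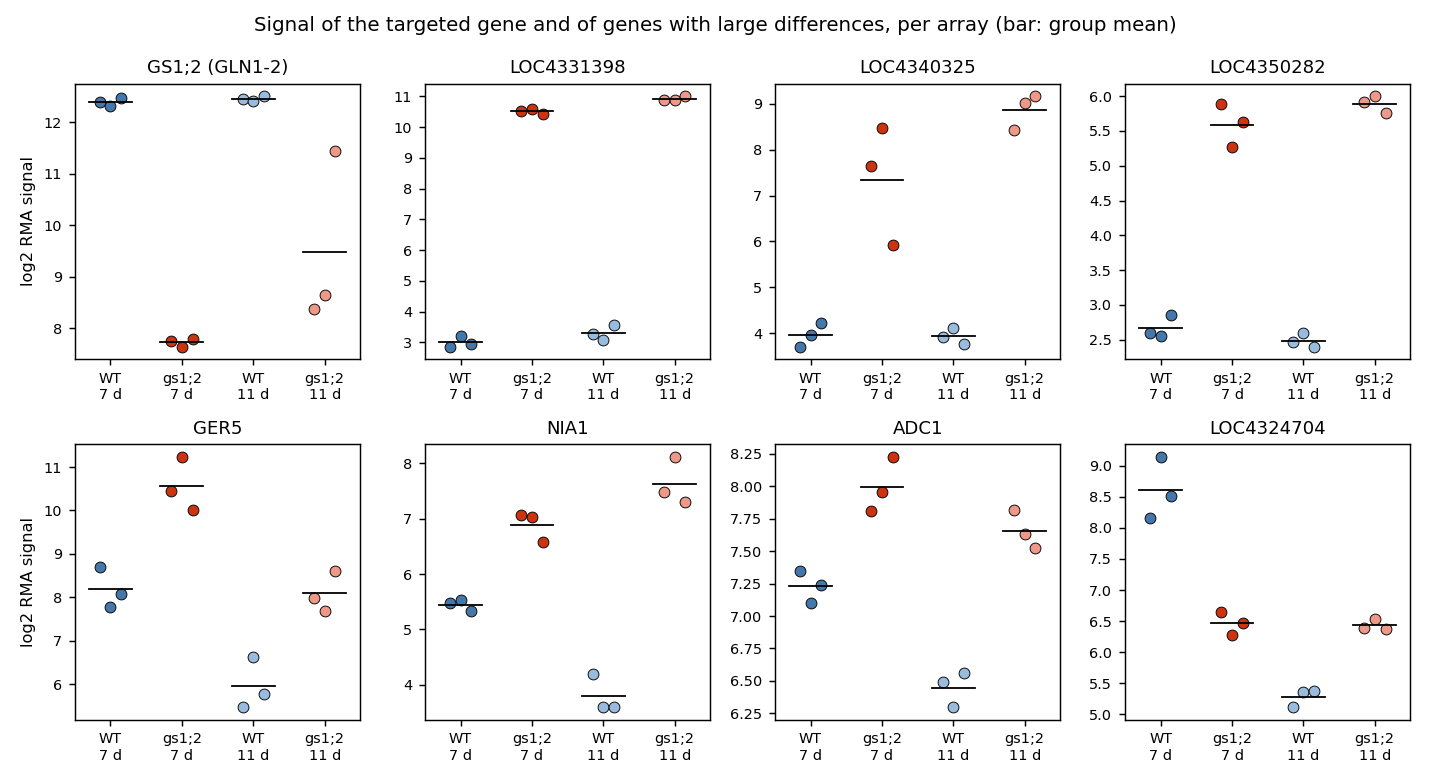
The log2 RMA signal of GS1;2 and of 7 further genes is plotted for each of the 12 arrays, with points for arrays and a bar for the mean of the 3 arrays of a group. At 7 d the wild-type and mutant points do not overlap in any panel. The GS1;2 point at 11.44 among the 11 d mutant arrays is the array that goes against its label in this gene.

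Over all 17905 genes, 265 had a passing probe set. Of the 2456 genes with an informative name, 17 rose and 20 fell. GER5, which encodes a germin-like protein of the cell wall, had the largest increase among them. It gave 8.70, 7.79 and 8.08 in wild type and 10.44, 11.23 and 10.00 in the mutant (2.37, SE 0.37, 5.18-fold, adjusted p = 0.0135). The spread within each genotype was wide, yet the groups stayed more than 1 apart. Without wild-type replicate 2 its adjusted p was 0.0719. The other 8 germin-like genes did not pass and differed by -0.71 (GER3) to 0.62 (GER8).

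ADC1, which encodes the arginine decarboxylase that opens the route to putrescine and the other polyamines, rose on both of its probe sets. The first gave 7.35, 7.10 and 7.24 in wild type and 7.81, 7.95 and 8.23 in the mutant (0.77, SE 0.12, adjusted p = 0.0139). The second gave 10.86, 10.62 and 10.72 against 11.34, 11.24 and 11.44 (0.60, SE 0.10, adjusted p = 0.0154). Both lost their call without wild-type replicate 2 (adjusted p = 0.0720 and 0.0767), and the second also without wild-type replicate 3 or mutant replicate 3. The other 5 polyamine genes did not pass. They include ADC2 (-0.16) and the S-adenosylmethionine decarboxylase gene AdoMetDC (0.02).

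Single genes of several other lists also rose. CIPK1, a kinase that is switched on by calcium sensors of the CBL family, gave 8.66, 8.92 and 8.86 in wild type and 9.40, 9.82 and 9.79 in the mutant (0.86, SE 0.12, adjusted p = 0.00679). FH10, a formin, of the family that nucleates actin filaments, gave 4.67, 4.53 and 4.90 against 5.52, 5.77 and 5.64 (0.94, SE 0.13, adjusted p = 0.00765). AGO18, an Argonaute protein known from antiviral defence in rice, gave 5.95, 6.19 and 6.04 against 6.95, 7.01 and 6.60 (0.79, SE 0.12, adjusted p = 0.0129). In these 3 genes no wild-type array reached the lowest mutant array, and each call held in all 12 fits that left out an array. A second probe set of AGO18, near the middle of all signals, differed by -0.14 and did not pass.

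YSL15, a transporter of iron chelated by phytosiderophore, rose by 0.87 (SE 0.17, adjusted p = 0.0381), from 6.70, 6.42 and 6.68 to 7.16, 7.76 and 7.50. It was the 1 of 35 genes of iron uptake and nicotianamine that passed (2.86%, while 0.787% of all genes rose). The iron transporter gene IRT1 differed by 0.07, and the nicotianamine synthase genes NAS1, NAS2 and NAS3 by -0.14, -0.10 and -0.14. KRP6, which encodes an inhibitor of cyclin-dependent kinases, rose by 0.66 (SE 0.13, adjusted p = 0.0381), and its dim second probe set differed by 0.15. YSL15 and KRP6 each passed in 3 of the 12 fits that left out an array, and each of these left out a mutant array (replicate 1 at 7 d, and replicates 2 and 3 at 11 d). The adjusted p of both reached 0.157, without wild-type 7 d replicate 2.

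The transcription factor gene NAC071 rose on 1 of its 3 probe sets (0.97, SE 0.17, adjusted p = 0.0234), while the others differed by 0.49 and 0.64 (adjusted p = 0.0730 and 0.112). AARE1, an acylamino acid-releasing enzyme, also had 1 passing probe set of 3 (0.69, SE 0.12), and the others were at -0.25 and -0.13. So in both genes the call rests on a single probe set, and in AARE1 the probe sets differ in sign. Both calls were lost without any 1 of the wild-type arrays at 7 d, mutant replicate 2 or mutant replicate 3, with adjusted p up to 0.0948 for NAC071 and 0.0878 for AARE1. GLK2, a GARP transcription factor of chloroplast development, rose by 0.45 (SE 0.09) on its brightest probe set and differed by 0.16 to 0.55 on the other 3. The MYB gene LTR1 rose by 0.60 (SE 0.13), with 0.32 on its second probe set. The protein phosphatase 2C genes PP2C69 and PP2C35 rose by 0.65 (SE 0.13) and 0.47 (SE 0.08). The kinase gene CIPK18 rose by 0.43 (SE 0.09). The cell wall invertase gene CIN4, dim in all arrays, rose by 0.48 (SE 0.10). GLK2, LTR1, PP2C69, CIPK18 and CIN4 passed in 2 or 3 of the 12 fits that left out an array, with adjusted p up to 0.165. None of these 5 genes passed without wild-type replicate 2, wild-type replicate 3 or mutant replicate 3, and neither did PP2C35 (adjusted p up to 0.0956).

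After GS1;2 and the chitinase gene Chia1d, SPX1 and SPX2 had the largest decreases among genes with an informative name. SPX proteins bind inositol pyrophosphates, which report the phosphate status of the cell, and hold back the phosphate starvation regulator PHR2, and SPX1 and SPX2 transcripts themselves are known to rise when phosphate runs short. SPX1 gave 8.97, 9.56 and 9.08 in wild type and 8.30, 7.89 and 8.07 in the mutant (-1.12, SE 0.14, 2.17-fold lower, adjusted p = 0.00379). SPX2 gave 7.21, 8.02 and 7.43 against 6.29, 6.50 and 6.49 (-1.12, SE 0.16, 2.18-fold lower, adjusted p = 0.00732). In both genes wild-type replicate 2 was the highest array, and both calls held in all 12 fits, that without this array included (adjusted p = 0.00610 for SPX1 and 0.00277 for SPX2). SPX3 differed by -0.53 (adjusted p = 0.166), SPX4 by 0.13 and SPX5 by 0.19. Of 23 measured genes of phosphate status, SPX1 and SPX2 fell (8.7%, against 0.464% of all genes) and none rose. The list's median difference was 0.01. The phosphate regulator genes PHR1, PHR2 and PHR3 differed by -0.03, 0.17 and 0.39, the transporter gene PT8 by 0.41 and the phosphate exporter gene PHO1;2 by 0.61, none of which passed.

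Genes of secondary wall formation were next. Secondary walls are the thick, cellulose- and xylan-rich walls of fibres and xylem, and their cellulose is made by a complex of CESA4, CESA7 and CESA9. CESA4 gave 8.82, 9.10 and 9.11 in wild type and 8.23, 8.44 and 8.22 in the mutant (-0.71, SE 0.11, adjusted p = 0.0138), and its second probe set fell by 0.66 (SE 0.14). CESA7 gave 9.65, 10.01 and 10.05 against 9.00, 9.45 and 9.13 (-0.71, SE 0.15, adjusted p = 0.0482). CESA9 had the same size and missed the threshold (-0.68, adjusted p = 0.0502). BC1, a COBRA-like protein whose loss makes rice culms brittle, gave 7.15, 7.52 and 7.57 against 6.33, 6.72 and 6.47 (-0.90, SE 0.16, adjusted p = 0.0280). GT43C, of the glycosyltransferase family that builds the xylan backbone, gave 9.36, 9.33 and 9.30 against 8.81, 8.77 and 8.74 (-0.56, SE 0.11, adjusted p = 0.0381). In each of these genes the mutant arrays all lay below the wild-type arrays.

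Of 27 genes of the secondary wall list, 4 fell (14.8%, against 0.464% of all genes) and none rose. The list's median difference was -0.03, so most members did not move with the cellulose synthases. The related glycosyltransferase genes GT43A and GT43H differed by -0.03 and 0.06. None of the 4 genes passed without wild-type replicate 2, wild-type replicate 3 or mutant replicate 3, with adjusted p up to 0.173. Of the 12 fits that left out an array, BC1 passed in 9, the 2 probe sets of CESA4 in 9 and 3, GT43C in 4 and CESA7 in 3. When an 11 d array was left out, 1 to 5 members of the list passed, with 5 without the array labelled mutant 11 d replicate 3. The lignin list (32 genes) had no member that passed, with differences from -0.98 to 1.81. Of 63 genes of primary walls and expansins, the expansin gene EXP29 alone fell (-0.45, SE 0.08, adjusted p = 0.0297), and it lost its call without any 7 d array other than mutant replicate 1 (adjusted p up to 0.0899).

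In the cell cycle and replication list, 2 of 76 genes fell. ORC3, a subunit of the complex that marks replication origins, gave 8.30, 8.44 and 8.42 in wild type and 8.04, 7.68 and 7.86 in the mutant (-0.53, SE 0.09, adjusted p = 0.0215). RFC5, a subunit of the clamp loader, gave 9.64, 9.80 and 9.70 against 9.43, 9.17 and 9.28 (-0.42, SE 0.08, adjusted p = 0.0383). In both, mutant replicate 1 was the mutant array nearest to wild type. Of 76 genes of the cell cycle and replication, ORC3 and RFC5 fell (2.63%, against 0.464% of all genes). KRP6 rose (1.32%, against 0.787%) and 73 did not pass. The list's median difference was -0.11, beside 0.01 for all genes, and 23 of its 76 members had a positive difference, against 52.2% of all genes. The helicase genes MCM2 to MCM7 differed by -0.31 (MCM7) to -0.15 (MCM5), none of which passed. No member fell or rose in the fits without wild-type replicate 2, wild-type replicate 3, mutant replicate 2 or mutant replicate 3, where the adjusted p of ORC3 was up to 0.0945 and that of RFC5 up to 0.157. Of the 12 fits that left out an array, ORC3 passed in 8 and RFC5 in 2.

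The next 5 genes were grouped by their known roles after their values were seen, and no list of ribosome production was tested. RH10, a DEAD-box RNA helicase also known as TOGR1 that takes part in rRNA processing, gave 9.65, 9.83 and 9.72 in wild type and 9.39, 9.08 and 9.10 in the mutant (-0.54, SE 0.10, adjusted p = 0.0335). Its other probe sets differed by -0.33 (adjusted p = 0.0516) and -0.18. WDR12, known in yeast and mammals as a factor of large ribosomal subunit assembly, fell by 0.47 (SE 0.09), and UMPS1, which makes the pyrimidine nucleotide UMP, by 0.46 (SE 0.08). RAN1, a small GTPase of nuclear transport, fell by 0.46 (SE 0.09). The ribosomal protein gene RPS20 fell by 0.47 (SE 0.10) on 1 probe set, and its other 3 differed by -0.21 to -0.09 without passing. By the brightest probe set none of 30 cytosolic ribosomal protein genes passed, and 7 of the 30 had a positive difference, with a median of -0.07. RH10, WDR12, UMPS1, RAN1 and RPS20 all lost their call without wild-type replicate 2 or mutant replicate 3, with adjusted p of 0.0816 to 0.161. Of the 12 fits that left out an array, UMPS1 passed in 9, RAN1 in 7, WDR12 in 6, RH10 in 5 and RPS20 in 2.

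The other named decreases were single genes. The chitinase gene Chia1d gave 4.77, 5.73 and 4.73 in wild type and 3.45, 4.05 and 3.74 in the mutant (-1.33, SE 0.23, adjusted p = 0.0232), and without mutant replicate 3 its adjusted p was 0.0853. It was the 1 of 27 chitinase and pathogenesis-related genes that passed (3.7%, while 0.464% of all genes fell). PBZ1, a pathogenesis-related gene of that list, had a larger difference that did not pass (2.51, adjusted p = 0.197). BURP17, of the plant-specific BURP domain family, fell by 0.54 (SE 0.09), from 12.50, 12.44 and 12.52 to 11.94, 12.07 and 11.84. Its call was lost without mutant replicate 3 (adjusted p = 0.0869) or without any 1 of the wild-type arrays at 7 d. The kinase gene SAPK7, of the SnRK2 family that acts in osmotic stress and abscisic acid signalling, fell by 0.39 (SE 0.08) and passed in 2 of the 12 fits that left out an array (adjusted p up to 0.160).

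**Figure D3:**
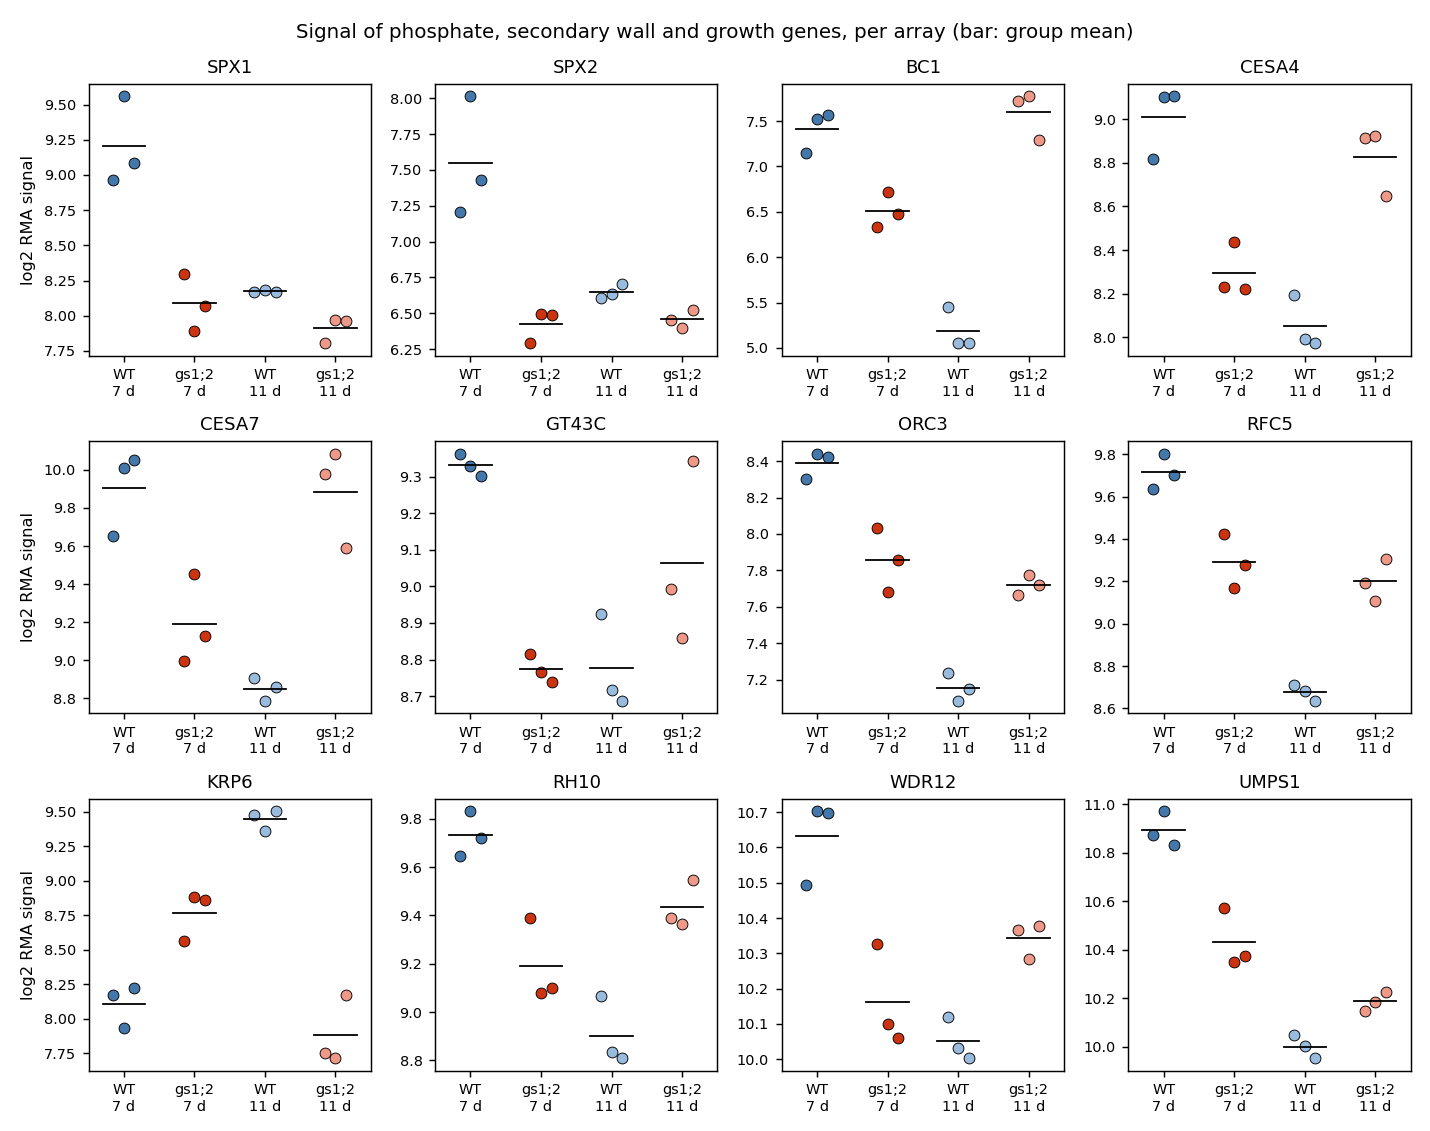
The log2 RMA signal of SPX1, SPX2, 4 secondary wall genes and 6 genes of replication, ribosome production and nucleotide supply is plotted for each of the 12 arrays, with a bar for each group mean. At 7 d all mutant points lie below the wild-type points, and above them in KRP6. At 11 d the wild-type points are the low group in BC1, CESA4, CESA7, ORC3, RFC5, RH10, WDR12 and UMPS1. They are the high group in KRP6, SPX1 and SPX2, and the groups overlap in GT43C. The 11 d differences of UMPS1, SPX1, SPX2 and GT43C did not pass.

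The remaining lists had few or no members that passed. Over all 17905 genes 0.787% rose and 0.464% fell, and no list was tested against these shares. Of 82 genes of abscisic acid and dehydration, 2 rose (PP2C35 and PP2C69, 2.44%) and 1 fell (SAPK7, 1.22%). Of 76 calcium signalling kinases 2 rose (CIPK1 and CIPK18, 2.63%). One gene rose in each of the lists of MYB factors (10 genes), formins and the cytoskeleton (76), small RNA machinery (26), and sugar and starch (70), and these are named above. No gene passed among 32 of cytokinin, 8 of strigolactone and tillering, 60 of auxin, 38 of jasmonate, 18 of ethylene and the methionine cycle, 8 of the clock, 46 of heat shock, 67 of redox and detoxification, 29 cytochrome P450 genes, 59 of potassium, water and sulfate transport and 6 histones. The 6 WRKY genes had the highest median difference (0.52), followed by the 8 NAC genes and the 17 diterpenoid phytoalexin genes (0.38 each). None of the genes in these lists passed on its brightest probe set. In the WRKY list the differences ran from -0.16 to 1.22.

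The 265 genes with a passing probe set were spread over all 12 chromosomes, from 1.25% of the measured genes of chromosome 9 to 2.2% of those of chromosome 12. In 12 cases 2 genes that passed were next to each other among the measured genes, and in 9 of these both moved the same way. How many such pairs 265 passing genes among 17905 would give without regard to position was not worked out, so no clustering is read from them. LOC4331397, next to LOC4331398 in the gene table, rose by 0.63 (SE 0.10, adjusted p = 0.0177), and the other 7 of the 8 nearest measured genes did not pass. LOC4329226 (0.63) lies next to LOC4329228. KRP6, LOC4347279 (0.60) and PP2C69 are neighbours on chromosome 9, and all 3 rose.

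At 11 d the same comparison called 14820 probe sets (25.9%), and the change of the genotype difference between the ages passed in 11780 (20.6%). Age goes together with another label here, since the titles put all 7 d arrays in 1 numbered set and all 11 d arrays in another, and the 2 cannot be told apart. The growth text also gives a different growth condition for a range of sample numbers. That range takes in the numbers in the 11 d wild-type titles and not those in the 11 d mutant titles. Whether the condition applies to these wild-type arrays is not clear. If it does, genotype and growth condition at 11 d cannot be told apart. Of the 319 probe sets higher at 7 d, 128 passed in the same direction at 11 d, 68 passed in the opposite one and 123 did not pass. Of the 237 lower, 51 passed in the same direction, 62 in the opposite one and 124 did not pass. Without the array labelled mutant 11 d replicate 3 these counts were 124 and 61 for the higher and 49 and 52 for the lower probe sets. The change with age passed in 164 of the higher and 170 of the lower probe sets. The mean signal of the green leaf genes, which overlapped at 7 d, was 8.58 to 8.76 in wild type and 9.43 to 9.75 in the mutant at 11 d, and its part in these changes was not tested.

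The largest increases kept their direction. Of the 20 probe sets higher by at least 2 at 7 d, 19 passed in the same direction at 11 d, and 5 changed in size with age. LOC4331398 differed by 7.62 at 11 d, LOC4340325 by 4.94, LOC4350282 by 3.41 and LOC4328903 by 2.87. GER5 differed by 2.14 at 11 d and Chia1d by -1.35, close to their values at 7 d. LOC4348633 was the exception, at 0.28 (adjusted p = 0.764).

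Of 45 named genes that passed at 7 d, 18 also passed in the same direction at 11 d and 14 passed in the opposite one. The latter include BC1 (2.41 at 11 d), CESA4 (0.78), CESA7 (1.03), ORC3 (0.57), RFC5 (0.52), RH10 (0.53), KRP6 (-1.57) and YSL15 (-0.91), and in all of them the change with age passed. In wild type the mean signal of CESA7 was 9.91 at 7 d and 8.85 at 11 d, and in the mutant 9.19 and 9.88. So the order of the genotypes turned over with a lower wild-type and a higher mutant signal at 11 d. In ORC3 both genotypes were lower at 11 d, with wild type at 8.39 and then 7.15 and the mutant at 7.86 and then 7.72. SPX1 and SPX2 did not differ at 11 d (-0.26 and -0.19, adjusted p = 0.218 and 0.449). Their wild-type signal was then 8.17 and 6.65, close to the mutant signal at either age. The difference of NIA1 was larger at 11 d, going from 1.44 to 3.83, with wild type at 3.80 and the mutant at 7.63 at 11 d.

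**Figure D4:**
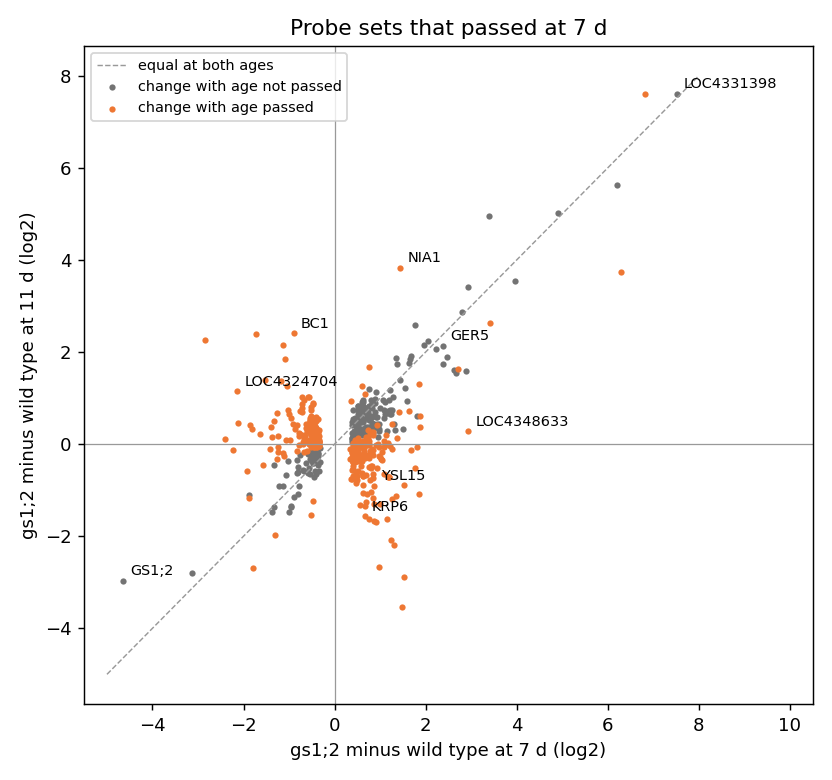
Each of the 556 probe sets that passed at 7 d is placed by its difference between mutant and wild type at 7 d and at 11 d (both log2), and orange marks those whose difference changed with age (334 of 556). The dashed line marks equal differences at both ages; 19 of the 20 increases of at least 2 passed in the same direction at 11 d, and 68 of all 319 increases passed in the opposite one.

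The number of calls at 7 d rested on single arrays. It was 130 without wild-type replicate 2, 176 without mutant replicate 3, 238 without wild-type replicate 3, 270 without mutant replicate 2 and 310 without wild-type replicate 1, and 1556 without mutant replicate 1. Leaving out an 11 d array gave 363 (wild-type replicate 2) to 605 (the array labelled mutant replicate 3), with 370 without mutant replicate 1. In all 12 of these fits 104 probe sets passed, 70 higher and 34 lower. Of the 50 passing probe sets of named genes, 15 passed in all 12 fits, and they belong to GS1;2, NIA1, SPX1, SPX2, CIPK1, FH10, AGO18, LOC4331398, LOC4340325, LOC4350282, LOC4328903, LOC4329228, LOC4324704 and LOC4335658.

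**Figure D5:**
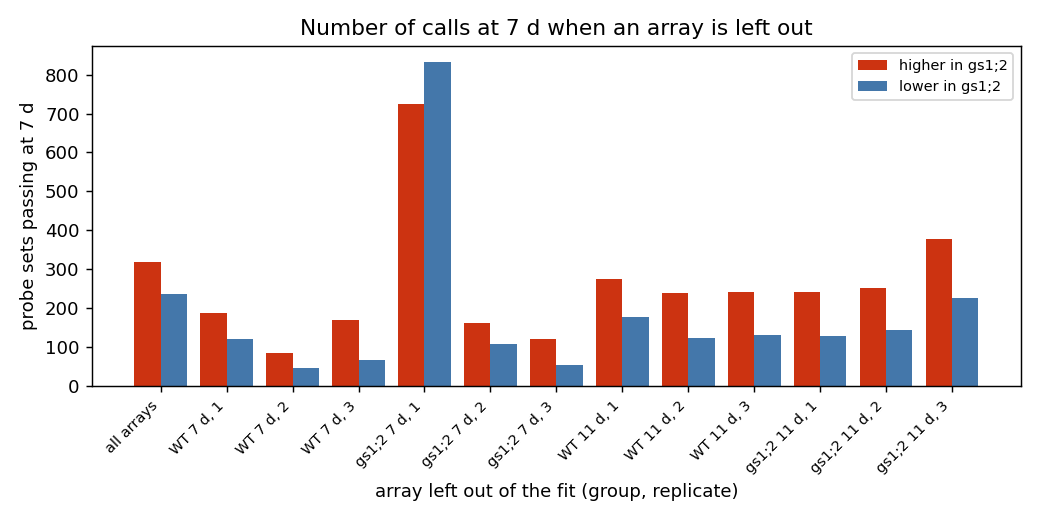
Bars give the number of probe sets that passed at 7 d, higher (red) and lower (blue) in the mutant, in the fit of all 12 arrays and in fits that each left out 1 array. The count ran from 130 without wild-type 7 d replicate 2 to 1556 without mutant 7 d replicate 1.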

How the data were processed

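The log2 values were used as the authors deposited them. Per the submitters' processing notes they come from RMA (robust multichip average) and R 3.1.0. From 57381 probe sets of the Affymetrix Rice Genome Array 187 control sets were left out. Of the 57194 tested, 22436 have 1 gene in the platform's annotation, 95 have several and 34663 have none listed, and such a set is unnamed here. Names come from the annotation and, for all 17905 genes, a RefSeq gene table of assembly ASM3414082v1, which was used for names and gene order alone.

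All 12 arrays were fitted with limma 3.58.1 in R 4.3.3, as 4 group means with default empirical Bayes moderation (8 residual degrees of freedom, prior 4.15). P-values are two-sided and adjusted by Benjamini-Hochberg over all probe sets, and a set passed under 0.05. SE is that of the fit, with 3 arrays per group. The fit was tested on simulated arrays with random noise of the spread seen here, drawn independently for each probe set and array. There it found 41.8% of added differences of 0.5, 85.1% of those of 1 and 95.5% of those of 2. Shifts shared by many probe sets of an array were not simulated, so these shares may not hold for the real arrays. A difference near 0.5 that did not pass can therefore be a missed one. Signal over background was not known. The precision rests on 3 arrays a group and on a spread estimated from all 12 arrays together. Replicates are numbered in accession order.

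Named are GS1;2 and the nitrogen assimilation genes, the 15 largest increases and 15 largest decreases among genes with an informative name, the 6 largest each way whatever the name, up to 4 passing members of each other list (32 pathway and 5 marker lists, 1126 genes), and other probe sets of these genes. Genes named beyond this rule, such as CESA9 or PBZ1, were chosen after their values were seen. A list counts each gene by its probe set with the highest mean. Members, lists and the rule were chosen with earlier results of these data known. Alternatives were other moderation, a filter on dim probe sets, 2 normalizations, array weights, a block by title number, the 7 d arrays alone, a minimum difference and leaving out each array.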

Additional observations from a re-analysis of the deposited data

Results flagged for a closer look

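The genotype difference at 11 d minus that at 7 d passed in limma for 31 probe sets of the genes named above, and each value below is that change on the log2 scale. A positive value on a gene that was lower in the mutant at 7 d means a smaller or turned difference at 11 d.

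Among genes of secondary walls and expansion the change was 3.31 for BC1, 1.75 for CESA7, 1.49 and 1.61 for the 2 probe sets of CESA4, 0.85 for GT43C and 0.60 for EXP29. In replication, ribosome production and nucleotide supply it was 1.10 for ORC3, 1.07 for RH10, 0.95 for RFC5, 0.89 for RPS20, 0.76 for WDR12, 0.76 for RAN1 and 0.64 for UMPS1. For SPX1 and SPX2 it was 0.86 and 0.93, and for SAPK7 0.58. LOC4324704 changed by 3.29, LOC4331734 by 2.92, LOC4343816 by 2.26 and LOC4344047 by 1.31.

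Of the genes higher at 7 d, NIA1 changed by 2.39, ADC1 by 0.65 on 1 of its probe sets, and LOC4331398 by 0.77 on 1 of its probe sets. The change was -2.65 for LOC4348633, -2.23 for KRP6, -1.78 for YSL15, -1.26 for AGO18, -0.77 for the rising probe set of LOC4329228, -0.73 for PP2C69, -0.59 for CIPK1 and -0.53 for AARE1.

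These calls held in all 12 fits that left out an array, apart from LOC4348633 (11 of 12, adjusted p = 0.0518 without wild-type 11 d replicate 3), CIPK1 and LOC4331398 (6 each), LOC4329228 (4) and AARE1 (2). Without the array labelled mutant 11 d replicate 3 the adjusted p was 0.0905 for AARE1, 0.0583 for CIPK1 and 0.0626 for LOC4331398. In GS1;2 the change did not pass with all arrays (1.68, adjusted p = 0.174) and passed without that array alone (0.71, adjusted p = 0.00316). The part of age in these changes and that of the 2 numbered sets of arrays cannot be told apart. The same holds for genotype at 11 d if the other growth condition applies to the 11 d wild-type arrays, which is not clear.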

How the results depend on the processing

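The number of probe sets that passed at 7 d, 556 with the settings of the report, depended on nearly every choice. It was 1183 with trended and robust moderation (532 of the 556 among them) and 1043 after a filter that kept 30025 probe sets (485 of the 556). With array quality weights it was 321, all of them among the 556. With the 7 d arrays alone it was 249, of which 192 were among the 556, and that fit has fewer residual degrees of freedom. A minimum difference of 1 left 127. Common medians gave 562 and quantile normalization 579. With the title number as a replicate block it was 133 (88 higher, 45 lower, 109 of them among the 556), and 13 of the 50 named probe sets passed. At 7 d the numbers 7 and 10 each stand on 1 array. The difference in that fit therefore rests on the arrays numbered 8 and 9. Same-numbered arrays deviated together by a correlation of 0.05 for both shared numbers. Differently numbered arrays were not compared, so this does not decide whether the numbers pair the samples. Leaving out 1 array gave 130 to 1556. The cause of these shifts was not tested. None of the 50 changed direction under any alternative run, but most of these runs could not have turned one. In all 556 the groups did not overlap, so leaving out or weighting arrays cannot turn a difference. Other moderation, the filter and the 7 d arrays alone leave the difference as it was. Either normalization could have turned one and did not. Of the 50, 24 passed with the 7 d arrays alone, 37 with array weights, and 47 to 49 under either normalization or trended moderation. The change with age passed in 9460 to 12955 probe sets under all alternatives run for it, against 11780. Counting a gene by any of its probe sets added 1 NAC gene higher and 1 ribosomal protein gene lower. The values hold no measure of signal over background, and 74 of the 556 had both 7 d means under the median of all values, where a small difference is least reliable.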

Other observations

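Of the 104 probe sets that passed in the fit of all arrays and in all 12 fits that left one out, 37 have a gene listed and 67 have none, and 70 also passed in the same direction at 11 d. Among the genes of this set that the text above does not name, LOC4343847 rose by 1.87, LOC4325412 by 1.64 and LOC4327182 by 1.37, and LOC4328142 fell by 1.04 and LOC4327998 by 0.96 (log2, limma). These were chosen after their values were seen.

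Of the neighbouring genes that rose together at 7 d, some turned together at 11 d and some did not. LOC4343483 and LOC4343485 on chromosome 7 were higher in the mutant by 1.31 and 0.99 at 7 d, and their differences at 11 d were -2.19 and -2.66. LOC4351356 and LOC4351361 on chromosome 12 rose by 0.76 and 0.84 at 7 d and differed by -1.63 and 0.61 at 11 d.

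The genes MCM2 to MCM7, which encode the replicative helicase and did not pass at 7 d, were higher in the mutant at 11 d by 0.83 (MCM6) to 0.94 (MCM5), and all 6 passed there (adjusted p = 8.05e-06 to 5.43e-05, limma). The nicotianamine synthase genes NAS1 and NAS2 were at -0.14 and -0.10 at 7 d and at 2.73 and 2.23 at 11 d.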
